A study of Mus musculus with 6 samples.

Results

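The NF-kB subunits and feedback regulators are 10 genes of the pathway that switches on inflammatory and survival genes: Nfkb1, Nfkb2, Rela, Relb, Nfkbia, Nfkbib, Nfkbiz, Bcl3, Tnfaip3 and Ikbkb. They were taken by exact gene symbol from a table of 45703 genes, and all 10 were present once. The samples were 6 primary cultures of dorsal root ganglia, which hold the cell bodies of sensory neurons with their glia, from wild type C57BL/6 mice of 4 to 6 weeks. After Liberase digestion, cells grew for 7 days on poly-L-lysine in medium with 10% fetal calf serum and EGF and FGF at 10 ng/ml, RNA was pooled from 2 dishes per sample, and all 6 samples formed 1 group with no treated or control arm. The design text names them biological replicates. Whether they came from separate animals was not stated in the sources used here, so every p-value refers to these samples only. The chi-square p-values set the counts against counting noise, not against a spread between animals.

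NF-kB factors are dimers of Rel family proteins. In resting cells, inhibitor proteins of the IkB family hold them in the cytoplasm. Receptors for TNF, interleukin-1 and microbial products activate the IKK kinase complex, which marks the inhibitors for destruction and frees the dimers. In the canonical branch the freed dimer is mainly RelA with the Nfkb1 product, whereas a slower branch acts through RelB and the processed Nfkb2 product. Several of the inhibitors are themselves target genes and so close feedback loops. In the peripheral nerve, the pathway is known for its part in the response of glia, macrophages and neurons to injury.

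The libraries held between 20070639 and 22968642 counts, and scaling factors from the trimmed mean of M-values (TMM) lay between 0.976 and 1.02. CPM scales a gene's count to the total of its library, and CPM per kb divides it by the combined exon length, so that genes can be compared. The labelled tissue was checked against marker genes. All 6 glial lineage markers and all 9 neuron markers reached 1 CPM in every culture, among them Cdh19 at 1294 ± 168 CPM and Tubb3 at 458 ± 100.4 CPM (SD, n = 6). Of 8 lymphocyte markers, 6 had at most 3 counts in every culture. Summed CPM of 6 fibroblast markers ran from 3338 in replicate 1 to 13967 in replicate 5, and that of 8 macrophage markers from 12.97 in replicate 1 to 128.6 in replicate 5. In bulk RNA, fewer cells of a type and less RNA per cell cannot be told apart.

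All 10 genes were detected at 1 CPM or more in all 6 cultures. The order of their mean levels in CPM per kb was Rela, Nfkb1, Nfkbia, Ikbkb, Bcl3, Nfkbib, Relb, Nfkb2, Nfkbiz and Tnfaip3, from 44.4 ± 3.62 down to 0.869 ± 0.369 CPM per kb (SD, n = 6). Rela lay at percentile 90.2 and Tnfaip3 at percentile 11.4 of the 14998 genes kept by the filter on low counts, whose median was 7.20 CPM per kb. Along this order, 3 neighbouring pairs were not separated by more than their spread. Nfkbia and Ikbkb differed by -0.01 ± 0.307 on the log2 scale, Relb and Nfkb2 by -0.01 ± 0.134, and Nfkbib and Relb by 0.15 ± 0.256, with the order held in 3, 3 and 5 of 6 cultures. The other 6 neighbouring pairs kept their order in 6 of 6 cultures.

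**Figure D1:**
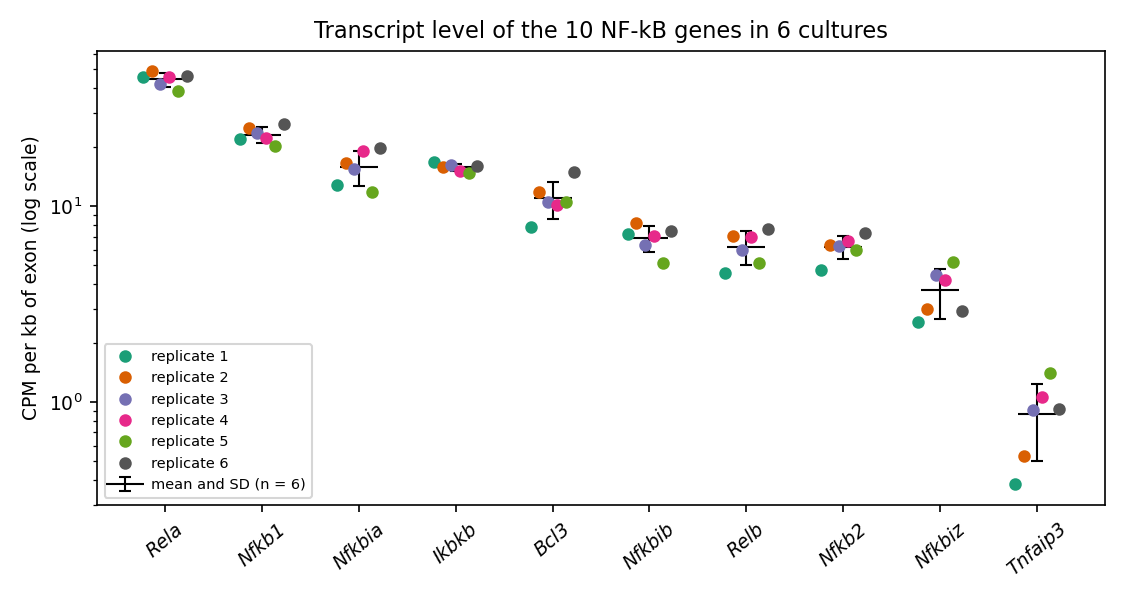
Transcript level of each of the 10 genes in CPM per kb of exon (vertical log axis), with 1 point per culture, coloured by replicate, and the mean with SD in black. Rela lies highest at 44.4 CPM per kb and Tnfaip3 lowest at 0.869, and the points of Nfkbia and Ikbkb overlap, as do those of Nfkbib, Relb and Nfkb2.

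Among the subunits, the canonical pair prevailed. Rela (GeneID 19697, chromosome 19, 5637442 to 5648134, GRCm38.p6), which encodes the subunit with the main activation domain of the canonical dimer, had a lowest value of 110.6, a median of 130.5 and a highest value of 140.1 CPM. Nfkb1 (GeneID 18033, chromosome 3, 135584655 to 135691969), whose product is cut to the DNA-binding partner of RelA, had 92.2, 105.2 and 119.4 CPM. Replicate 5 was lowest for both. Relb (GeneID 19698, chromosome 7, 19606217 to 19629438), the activating subunit of the slower branch, had 13.4, 19.1 and 22.5 CPM. Nfkb2 (GeneID 18034, chromosome 19, 46300994 to 46312400), its precursor partner, had 34.7, 46.4 and 53.9 CPM. Both were lowest in replicate 1 and highest in replicate 6.

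Per kb, Rela exceeded Relb 7.13-fold, a log2 difference of 2.83 ± 0.247 (SD, n = 6), in 6 of 6 cultures (two-sided exact sign-flip permutation p = 0.0312, the smallest that 6 cultures allow; Benjamini-Hochberg adjusted over 8 pairs of members, p = 0.0357). The Nfkb1 level exceeded that of Nfkb2 by 1.89 ± 0.172 on the same scale and Rela that of Nfkb1 by 0.93 ± 0.0994, each in 6 of 6 cultures and with the same exact permutation p-values. Of the summed CPM per kb of the 4 subunits, Rela took 55.5% ± 2.22, Nfkb1 29.0% ± 1.09, Nfkb2 7.76% ± 0.903 and Relb 7.73% ± 1.03 (SD, n = 6). No difference between Relb and Nfkb2 was detected on this scale (log2 difference -0.01 ± 0.134, exact permutation p = 0.969, adjusted 0.969). That tie depended on the length used: the combined exon length of Nfkb2, 7345 bases, far exceeds its longest coding length of 2697 bases. Per coding length, Relb lay below Nfkb2 (log2 difference -0.64, exact permutation, adjusted p = 0.0357). The log2 difference of Nfkb1 from Nfkb2 was then 1.11 in place of 1.89. The share of Nfkb2 among the subunits and its place in the order of levels rest on the combined exon length too.

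Relb and Nfkb2 moved together across the cultures. Pearson's r of their log2 TMM-scaled CPM was 0.92 (n = 6, exact permutation p = 0.00278, adjusted over 5 pairs of members p = 0.0139), and Spearman's rho was 0.94 (exact permutation p = 0.0167, adjusted 0.0833). After removal of replicates 1 and 6, whose Nfkb2 levels were most extreme, r was 0.97. No batch is named in the labels, and none could be used to split the relations. In the other 4 pairs the relation did not pass the correction. Nfkb1 with Nfkbia gave r = 0.76 and rho = 0.66 (exact permutation p = 0.0917 and 0.175, adjusted 0.229 and 0.403). Rela with Nfkbia gave r = 0.64 and rho = 0.60 (exact permutation p = 0.172 and 0.242, adjusted 0.287 and 0.403). With the 2 most extreme libraries removed, these r values were 0.24 and 0.02. Nfkbia with Tnfaip3 gave r = 0.05 and rho = 0.03, and Nfkbiz with Bcl3 r = -0.05 and rho = 0.09 (exact permutation p from 0.919 to 1, adjusted 0.935 for both r and 1 for both rho). With the 2 most extreme libraries removed, r of those last pairs was 0.72 and -0.89.

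Of the members' inhibitors that hold NF-kB in the cytoplasm, Nfkbia was the more abundant. Nfkbia (GeneID 18035, chromosome 12, 55489409 to 55492647) encodes IkB-alpha, the fast feedback inhibitor, and Nfkbib (GeneID 18036, chromosome 7, 28758251 to 28766644) encodes IkB-beta, which binds the same dimers. The lowest, median and highest CPM were 18.6, 25.4 and 31.4 for Nfkbia and 10.9, 15.1 and 17.4 for Nfkbib. Replicate 5 was lowest for both, and the ranges per kb, 11.8 to 19.9 and 5.15 to 8.21, did not overlap. Nfkbia exceeded Nfkbib 2.27-fold per kb (log2 difference 1.19 ± 0.233, 6 of 6 cultures, exact permutation p = 0.0312, adjusted 0.0357) and lay below Rela (log2 difference -1.49 ± 0.245, 6 of 6 cultures, same p-values). Summed per kb, transcripts of both inhibitors amounted to 0.284 ± 0.0304 of those of the 4 subunits (SD, n = 6), from 0.242 in replicate 5 to 0.322 in replicate 4. These are transcript ratios, and protein was not measured. They leave out the inhibitor gene Nfkbie (5.01 CPM per kb, beside 6.90 for Nfkbib) and the subunit gene Rel (2.63 CPM per kb), which are not members.

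The nuclear IkB proteins bind NF-kB on DNA and tune which targets respond. Bcl3 (GeneID 12051, chromosome 7, 19808462 to 19822824), a partner of the homodimers that lack an activation domain, had a lowest value of 14.9, a median of 20.1 and a highest value of 28.5 CPM. Nfkbiz (GeneID 80859, chromosome 16, 55811375 to 55838954) encodes IkB-zeta, an inducible co-activator of secondary response genes such as Il6. Its values for replicates 1 to 6 were 19.5, 22.6, 34.1, 31.8, 39.7 and 22.3 CPM. Replicates 3, 4 and 5 thus stood above 31 CPM and the other 3 below 23. Per kb of exon, Nfkbiz lay below Bcl3 in 6 of 6 cultures (log2 difference -1.55 ± 0.4996, exact permutation p = 0.0312, adjusted 0.0357). The call was lost per coding length (log2 difference -0.28, exact permutation, adjusted p = 0.313), the combined exon length of Nfkbiz being 7600 and its coding length 2184 bases.

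Tnfaip3 (GeneID 21929, chromosome 10, 19000910 to 19015410) encodes a ubiquitin-editing enzyme that shuts off signalling upstream of IKK and is a classic NF-kB target. It was the scarcest member and varied most. The deposited counts for replicates 1 to 6 were 42, 56, 95, 103, 141 and 93, or 1.83, 2.55, 4.39, 5.13, 6.74 and 4.45 CPM. The highest culture exceeded the lowest 3.68-fold. Nfkbia lay 4.12 ± 0.652 above Tnfaip3 on the log2 scale per kb (6 of 6 cultures, exact permutation p = 0.0312, adjusted 0.0357). Ikbkb (GeneID 16150, chromosome 8, 22659205 to 22706589), the kinase subunit that phosphorylates the inhibitors in the canonical branch, was the steadiest. Its lowest, median and highest values were 68.2, 73.4 and 76.8 CPM, with a coefficient of variation of 4.32% against 42.4% for Tnfaip3.

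The 3 feedback genes with matches to the kB consensus, the binding site of NF-kB dimers, are shown here because they carry that sequence close to an annotated start. RefSeq's table of promoters (GRCm38.p6) held windows for 6 of the 10 genes: Nfkb2, Rela, Nfkbia, Nfkbib, Tnfaip3 and Bcl3. The kB consensus of 10 letters was searched on both strands in the 250 bases before each start, overlaps allowed. It was found in Nfkb2, Nfkbia and Tnfaip3, 3 of 6 genes, and in 8.23% of the 27025 genes of the table. Windows of Rela, Nfkbib and Bcl3 held no match, and neither did the window of a further start of Tnfaip3. The stretch before the start of Nfkbia spans chr12:55492648-55492797 on the minus strand. The other stretches of 30 bases are chr10:19015411-19015440 and chr10:19015516-19015545 (minus strand, Tnfaip3) and chr19:46304688-46304717 (plus strand, the first of 3 starts of Nfkb2 with a window). Each is written from 5′ to 3′ along its gene, with letters of a match in capitals:
Nfkbia: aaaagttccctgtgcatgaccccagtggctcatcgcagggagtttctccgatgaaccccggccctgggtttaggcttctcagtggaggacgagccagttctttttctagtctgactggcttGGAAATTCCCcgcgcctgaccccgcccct
Tnfaip3, near match: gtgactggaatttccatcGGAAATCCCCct
Tnfaip3, far match: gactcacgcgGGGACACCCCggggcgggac
Nfkb2: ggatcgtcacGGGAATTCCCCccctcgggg
The first base of the printed match lay 29 bases before the start in Nfkbia, 12 and 125 in Tnfaip3 and 39 in Nfkb2. Nfkb2 held a further match 11 bases before the same start, and 1 match before each of its other starts with a window, at 236 and 225 bases. The gene record of Nfkb2 begins at 46300994, upstream of these 3 starts, so the distances are not counted from its first base. The capitals in Nfkb2 cover overlapping matches on both strands. In the GENCODE M21 annotation the 150 bases before the start shown overlapped no exon in Nfkbia, an exon of Tnfaip3 in Tnfaip3, and exons of Nfkb2 and of 1 other record in Nfkb2. Among other pathway genes with a window, the consensus was found in 10 of 21 target genes and 3 of 7 other Rel, IkB and IKK genes. It was also found in 3 of 8 receptors, 2 of 7 negative regulators and 4 of 17 adaptors, kinases and ligases. Marker lists gave 2 of 4 endothelial, 1 of 4 mural and 1 of 4 neuron genes. They gave 0 of 5 satellite glia, 0 of 5 macrophage, 0 of 5 lymphocyte, 0 of 3 fibroblast and 0 of 1 glial lineage genes. A match in these letters is a description and shows no binding.

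All 10 genes varied between cultures by more than counting noise (chi-square test of the 6 counts against TMM-scaled library sizes, Benjamini-Hochberg adjusted p under 0.05 over 14998 genes). The same test called 76.3% of all genes tested, so the count by itself is close to what most genes gave. The adjusted p-values ran from 2.1e-45 for Nfkbiz to 0.00194 for Ikbkb, and that of Tnfaip3 was 4.4e-15. Without replicate 5, Ikbkb was no longer called (chi-square, adjusted p = 0.0639) and the other 9 were. The size of the spread separated the members more clearly. The SD of log2 TMM-scaled CPM was 0.59 for Tnfaip3, 0.38 for Nfkbiz, 0.30 for Nfkbia and Bcl3, 0.29 for Relb, 0.24 for Nfkbib, 0.21 for Nfkb2, 0.15 for Nfkb1, 0.14 for Rela and 0.07 for Ikbkb. The median was 0.27 over the 10 members and 0.16 over all genes tested. The biological coefficient of variation from edgeR leaves out counting noise but is drawn toward the values of other genes. It was 0.389 for Tnfaip3 and 0.0938 for Ikbkb, beside a common value of 0.209. It is thus not a gene's own spread alone, and for Ikbkb it exceeded the coefficient of variation of its CPM, 4.32%.

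**Figure D2:**
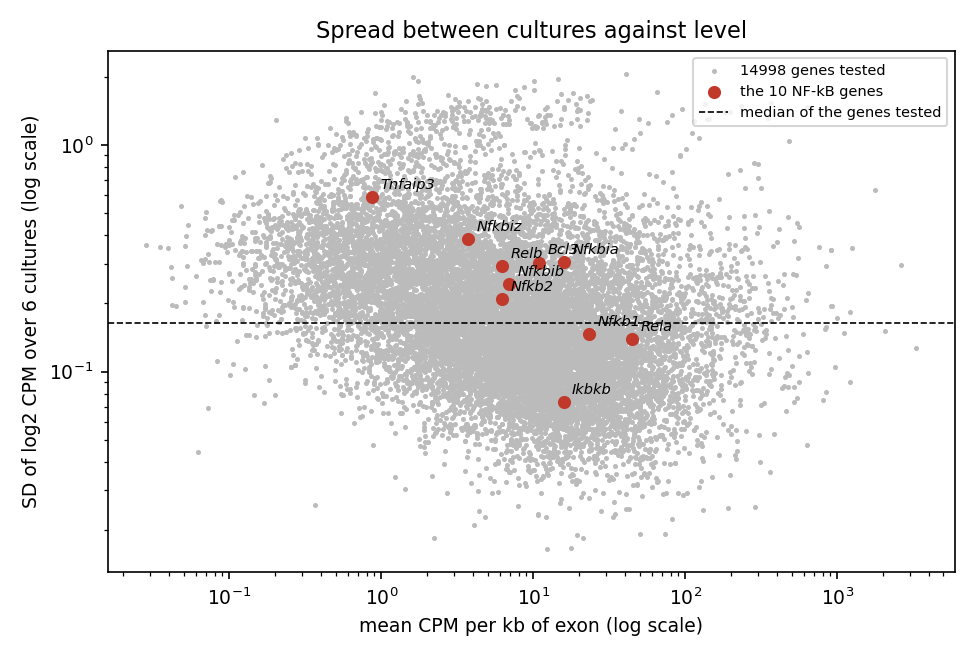
SD of log2 TMM-scaled CPM over the 6 cultures (vertical log axis) against mean CPM per kb (horizontal log axis), for 14998 genes in grey and the 10 members in red, with the median SD of 0.16 as a dashed line. Rela, Nfkb1 and Ikbkb lie under the line, and the other 7 members above it.

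Directions differed among the members. Replicate 5 held the lowest CPM of 5 members (Rela, Nfkb1, Nfkbia, Nfkbib and Ikbkb) and replicate 1 that of the other 5. Summed glial lineage markers were also lowest in replicate 5, at 4390 CPM against 5678 to 6453 CPM elsewhere, as were neuron markers, at 1011 CPM against 1209 to 2202 CPM. Their part in the levels of those 5 members was not tested. Across all genes tested, 26.2% were lowest in replicate 5 and 23.8% in replicate 1. Replicate 6 was highest for 5 members (Nfkb1, Nfkb2, Relb, Nfkbia and Bcl3), against 12.5% of all genes, and replicate 5 for Nfkbiz and Tnfaip3. Relative to its own mean over cultures, Tnfaip3 in replicate 5 deviated by 0.71 on the log2 scale, the largest deviation of any member in that culture, while Nfkbia and Nfkbib lay below their means in the same culture.

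**Figure D3:**
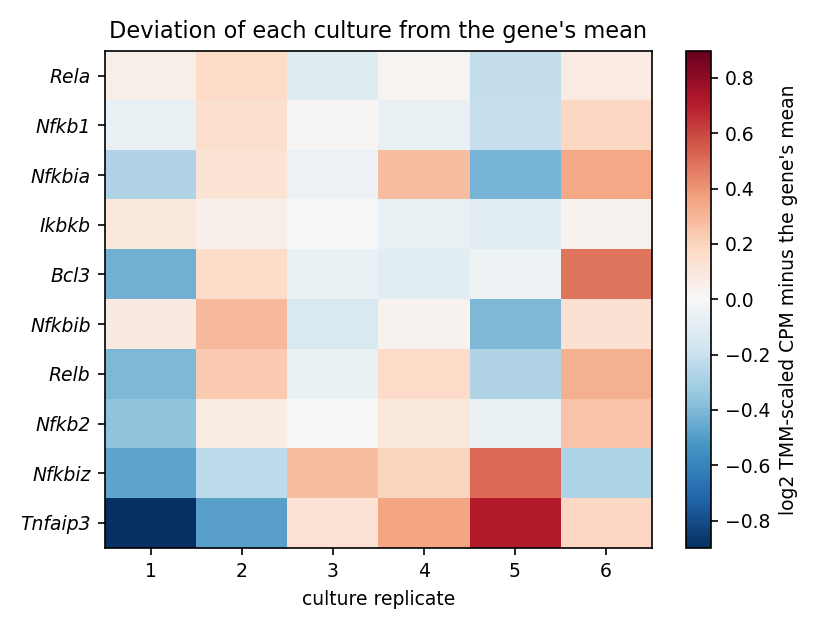
Log2 TMM-scaled CPM of each member (rows, ordered by level) in each culture (columns) minus that member's mean over the 6 cultures, from blue for lower to red for higher. Tnfaip3 and Nfkbiz are lowest in replicate 1 and highest in replicate 5, whereas Rela, Nfkb1, Nfkbia, Nfkbib and Ikbkb have their lowest CPM in replicate 5.

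The 2 most variable members, Tnfaip3 and Nfkbiz, were set beside marker lists of other cell types. Summed CPM of the macrophage list for replicates 1 to 6 was 12.97, 22.997, 91.7, 99.5, 128.6 and 31.6, so replicates 3, 4 and 5 stood apart from the rest. These are the same cultures in which Nfkbiz exceeded 31 CPM, a limit read from its own values. Tnfaip3 did not split that way, with 4.45 CPM in replicate 6 and 4.39 CPM in replicate 3. Because the cultures fell into separate clusters of 3 by this list, a pooled correlation with it is not given as a result, and 3 cultures are too few for one within a cluster. None of the 8 macrophage markers was at or under 3 counts in every culture, and 5 of 8 reached 1 CPM in all 6. The fibroblast list summed to 3338, 6062, 4429, 7446, 13967 and 4799 CPM, with all 6 markers above 1 CPM in every culture. The mural list (6 of 6 markers at 1 CPM or more in every culture) summed to 273.7, 577, 866, 914, 1541 and 983 CPM, and the endothelial list (2 of 6) to 8.84, 21.7, 27.7, 39.6, 122.6 and 28.9 CPM. All 4 lists were thus lowest in replicate 1 and highest in replicate 5, as Nfkbiz and Tnfaip3 were. The part of any of these cell types in the levels of Nfkbiz and Tnfaip3 was not tested.

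With the fibroblast score, the mean log2 TMM-scaled CPM of its 6 markers, Nfkbiz had r = 0.88 and rho = 0.94 (n = 6, exact permutation p = 0.0153 and 0.0167, adjusted over 20 relations 0.0611 and 0.0833). For Tnfaip3, r was 0.88 and rho 0.83 (exact permutation p = 0.0194 and 0.0583, adjusted 0.0648 and 0.194). When replicates 1 and 5, those with the most extreme scores, were removed, r was 0.58 and 0.45. Ikbkb moved the other way, with r = -0.98 and rho = -0.94 (exact permutation p = 0.00417 and 0.0167, adjusted 0.0278 and 0.0833), and r was -0.93 without replicates 1 and 5. Scaled by plain library totals, the adjusted exact permutation p of that r was 0.0556. The range of Ikbkb was small throughout, 1.13-fold from lowest to highest. The remaining 7 members gave r between -0.65 and 0.35, with adjusted exact permutation p-values from 0.361 to 0.955, and rho between -0.71 and 0.03.

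**Figure D4:**
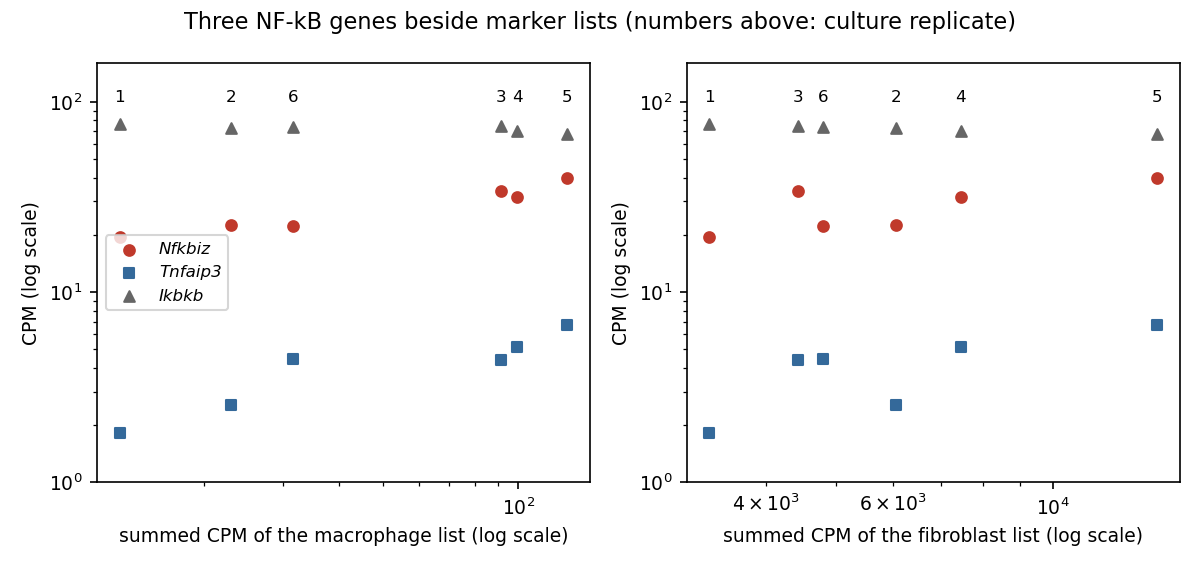
CPM of Nfkbiz, Tnfaip3 and Ikbkb (vertical log axis) against the summed CPM of the macrophage list and of the fibroblast list (horizontal log axes), with 1 point per culture and replicate numbers above. Replicates 3, 4 and 5 lie apart at 91.7 to 128.6 summed macrophage CPM, where Nfkbiz is at 31.8 to 39.7 CPM, and replicate 5 lies apart at 13967 summed fibroblast CPM.

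The genes with the most similar pattern were sought among 11933 genes with a mean of at least 5 CPM. For Rela, the most abundant member per kb, they were Nenf (r = 0.993), Nfkbib (0.992), Fam76a (0.992), Gphn (0.989) and Slc35b2 (0.989) over the 6 cultures. Nfkbib, itself a member, ranked second, and that rank was not tested. In all, 292 genes (2.45%) had r above 0.9 with Rela. For Tnfaip3, the most variable member, they were Arap2 (r = 0.999), Jag1 (0.997), Igfbp7 (0.997), Gm12693 (0.996) and Slfn5 (0.996), and 549 genes (4.60%) exceeded 0.9. The named genes were picked as the highest of 11933 over only 6 libraries, so their high r follows from the choice. They are given as a description. Igfbp7 ran from 121.6 to 644 CPM and Jag1, a Notch ligand, from 23.4 to 105 CPM.

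Of 7 other Rel, IkB and IKK genes, 6 passed the filter and 5 varied beyond counting noise, as 76.3% of all genes tested did. Chuk, the IKK-alpha kinase, averaged 65.1 ± 4.21 CPM and Ikbkg, the regulatory subunit of the complex, 129 ± 19.6 CPM (SD, n = 6). Per kb these were 13.002 and 10.4 CPM, beside 15.8 for Ikbkb. The place of Ikbkg below Chuk and Ikbkb rests on its combined exon length, 12462 bases against 5008 and 4586. Ikbkg and Chuk had fractional counts in 4 of 6 libraries and Ikbkb in 3, so some reads may have been shared with other places. Rel, the subunit typical of lymphoid cells, averaged 2.63 CPM per kb, under Relb at 6.23. Before division by length, Rel averaged 19.6 CPM and Relb 18.3 CPM. Their order per kb thus rests on combined exon lengths of 7465 bases for Rel and 2943 for Relb. Nfkbie, another cytoplasmic inhibitor, averaged 12.2 ± 3.46 CPM and was highest in replicate 6 and lowest in replicate 5, the same extremes as Nfkbia. Nfkbid, a nuclear IkB gene, averaged 0.648 CPM and did not pass the filter. The IKK-related kinases Tbk1 and Ikbke averaged 53.4 ± 2.43 and 14.4 ± 1.39 CPM (17.6 and 3.19 CPM per kb), and Tbk1 was the gene not called (chi-square, adjusted p = 0.0828).

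Receptors upstream of the pathway were led per kb by Tnfrsf12a, the TWEAK receptor, at 167 CPM per kb. Tnfrsf1a, the widely expressed TNF receptor, had 83.4 CPM per kb and Ltbr, the lymphotoxin receptor that feeds the slower branch, 30.8. Their unscaled levels were 161 ± 19.5, 180 ± 15.8 and 65.0 ± 6.08 CPM (SD, n = 6). Of 10 receptors, 8 passed the filter and all 8 varied beyond counting noise, against 76.3% of all genes tested. Il1r1, the interleukin-1 receptor, had the widest spread on the log scale, between 10.1 CPM (replicate 1) and 46.1 CPM (replicate 5). Tnfrsf11a (0.392 to 2.68 CPM) and Tlr2 (0.740 to 2.64 CPM) came next. Tnfrsf11a, the RANK receptor, did not pass the filter.

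Adaptors, kinases and ubiquitin ligases upstream of IKK were steady. All 21 passed the filter and reached 1 CPM in every culture, and 18 varied beyond counting noise, against 76.3% of all genes tested. Their median SD of log2 CPM was 0.12. Irak1, a kinase below interleukin-1 and Toll-like receptors, averaged 140 ± 6.54 CPM, with fractional counts in all 6 libraries. Tab2, which links ubiquitin chains to the kinase Map3k7, averaged 247 ± 27.3 CPM and Rbck1, of the linear ubiquitin ligase, 59.1 ± 3.10 CPM. These were the 3 highest per kb, at 35.5, 32.3 and 21.95 CPM per kb. Birc3 varied most on the log scale, from 5.39 to 14.9 CPM. Next came Map3k14 (7.40 to 13.6 CPM), the kinase of the slower branch, and Birc2 (36.9 to 58.5 CPM). Replicate 1 was lowest for 7 of these 21 genes, among them Birc3 and Map3k14. It was also lowest for 5 of the 10 members, Relb and Nfkb2 included, and for 23.8% of all genes tested. Birc2 and Birc3 are close relatives with fractional counts in 5 of 6 libraries, so their separate levels are uncertain.

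Negative regulators outside the members were likewise steady, with a median SD of 0.12. All 11 passed the filter and were called, as were 76.3% of all genes tested. The highest per kb were Tax1bp1 (225 ± 17.0 CPM) and Rnf11 (115 ± 10.5 CPM), partners of the Tnfaip3 protein, and the ubiquitin ligase gene Itch (161 ± 8.26 CPM). All 3 lay far above Tnfaip3 per kb, at 59.5, 53.8 and 28.3 CPM per kb beside 0.869. Pdlim2, which targets nuclear RelA for breakdown, varied most on the log scale, between 8.23 CPM (replicate 1) and 21.02 CPM (replicate 5). Tnip2 ran from 25.4 to 35.1 CPM and Zc3h12a, an RNase for inflammatory transcripts, from 7.01 to 10.6 CPM.

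Textbook target genes showed the widest spread of the 5 lists. Of 28 genes, 14 passed the filter and all 14 were called, as were 76.3% of all genes tested. The filter asks for a minimum count in every culture, so targets near 0 in any culture were not tested, and the values over the 14 do not describe all 28. The median SD of log2 CPM was 0.58, against 0.16 over all genes tested, and 7 of the 14 were highest in replicate 5 (29.2% of all genes tested). Per kb the highest were Ier3, an immediate early gene, at 64.2 ± 19.7 CPM, Csf1, the macrophage growth factor, at 128 ± 22.996 CPM, and the chemokine gene Ccl2 at 22.9 ± 10.6 CPM (SD, n = 6). The prostaglandin synthase gene Ptgs2 lay between 2.83 CPM (replicate 1) and 204 CPM (replicate 5). Mmp9 and Saa3 reached 17.7 and 9.75 CPM in replicate 5. Ccl20 and Csf2 had at most 3 counts in every culture, and 3 counts correspond to 0.131 to 0.149 CPM. Of the 14 tested targets, 9 were lowest in replicate 1 and 4 in replicate 5. Those 4, named here after their values were seen, were Gadd45b, Cxcl10, Traf1 and Irf1, with 18.3, 7.79, 2.197 and 21.6 CPM in that culture. Summed over the list, CPM ranged from 307 in replicate 1 to 801 in replicate 5, the extremes of the macrophage, fibroblast, mural and endothelial sums as well, and the part of those cells in it was not tested.

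**Figure D5:**
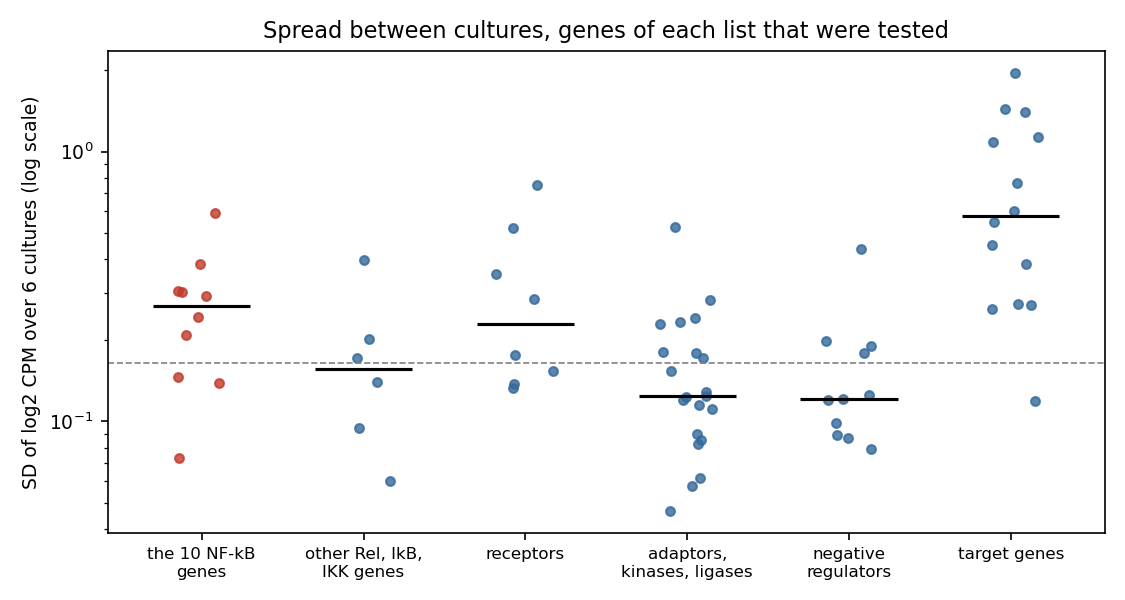
SD of log2 TMM-scaled CPM over the 6 cultures (vertical log axis) for each tested gene of the members and of the 5 pathway lists, with list medians as bars and the median of all tested genes, 0.16, as a dashed line. The median is 0.58 for target genes, 0.27 for the 10 members and 0.12 for both the adaptors and the negative regulators.

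Counts of Rela were fractional in 2 libraries and those of Ikbkb in 3, and the other 8 members had whole counts throughout. Records of other genes overlapped the spans of Nfkb1, Nfkb2, Nfkbib and Bcl3 on the opposite strand. The strand setting of the counting was not given in the sources used here, so reads of such partners may be included. Those partners averaged at most 3.43 CPM (4833438C02Rik, within Nfkb2 at 45.7 CPM).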

How the data were processed

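The members, gene lists and tests were chosen with earlier results of these data known. The deposited table holds estimated counts per gene, unscaled and in part fractional, as the authors left them. Per the submitters' processing notes, bcl2fastq 2.20.0.422, cutadapt 2.5, STAR 2.7.2b and featureCounts 1.6.4 were used with GRCm38.p6. Their settings were not given in the sources used here. Per the labels, poly-A libraries were stranded, and RNA integrity numbers were at least 8.7.

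Counts were rounded for edgeR 4.0.16 (R 4.3.3), filtered with filterByExpr, which with 1 group asks for its minimum count in every library, and scaled by TMM. The chi-square test ran on all 14998 genes kept and was tested on simulated data. CPM used plain library totals and unrounded counts. Levels were compared as log2(CPM per kb + 0.1) by exact sign-flip permutation (64 patterns, adjusted over 8 pairs), and relations as log2(TMM-scaled CPM + 0.5) by exact permutation of 720 pairings. A blocked analysis needs 2 groups and was not made. Named genes were the 10 members, the genes of the Rel, IkB and IKK list, from each other pathway list the 3 highest per kb, the 3 with the largest SD at a mean of 1 CPM or more and those with at most 3 counts, from marker lists 2, and the 5 genes most similar to Rela and to Tnfaip3. Coding lengths came from GENCODE M21 (GRCm38) and were chosen once the data had been seen, since no protein table was used. DESeq2 1.42.0 gave alternative size factors.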

Additional observations from a re-analysis of the deposited data

Results flagged for a closer look

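For 52 measures over the 6 cultures, the distance of the highest or lowest culture from the closest other one, as a share of the full range, was held against Dixon's limit. It passed that limit in 3, and about 1 in 20, or 2.6, are flagged by chance among measures not chosen by their spread. All 3 were target genes with their highest CPM in replicate 5, and they were named for the largest SD in their list. The number 2.6 is thus no yardstick for these 3 genes. Saa3 and Mmp9 had also not passed the low-count filter. For Saa3 the ratio was 0.897, with 9.75 CPM in replicate 5 and at most 1.00 CPM elsewhere. For Mmp9 it was 0.729, with 17.7 CPM in replicate 5 and 4.78 CPM in the next culture, replicate 4. For Ptgs2 it was 0.658, with 204 CPM in replicate 5 and 71.8 CPM in replicate 4. None of the 10 members, their 8 paired differences or the inhibitor to subunit ratio passed the limit.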

How the results depend on the processing

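The count of 10 members at 1 CPM in all cultures was also 10 at 10 counts and without any single replicate, and 9 at 5 CPM. The 10 members varying beyond counting noise were also 10 with DESeq2 size factors, plain totals or no low-count filter, and 9 to 10 when single replicates were left out. With a pseudocount of 1 in place of 0.1, all 8 paired differences kept direction and side of the threshold. With coding length, the difference of Nfkbiz from Bcl3 was -0.28 and no longer passed, and that of Relb from Nfkb2, -0.64, passed. The cause is the length by construction. The other 6 kept their call. Leaving out single replicates moved each paired difference by less than its SD, as values with no test, since 5 cultures cannot reach p under 0.0625. Of 20 relations with the fibroblast and macrophage scores, 3 had an adjusted p under 0.05 for r, 2 of them with the macrophage score, whose cultures form clusters so that its r is not read as a result, and 0 did with plain library totals (smallest adjusted p = 0.0556, exact permutation; 6 relations had an unadjusted p under 0.05 with TMM). With plain totals, r changed sign for Relb (0.051) and Bcl3 (0.055) with the macrophage score; the cause was not tested. By Spearman's rho, 0 relations passed. Scaling by protein length was not run. Depth limits Tnfaip3 most, at 42 to 141 counts.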
